A study of Mus musculus with 12 samples.

Results

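The lysyl oxidase family comprises 5 genes, Lox, Loxl1, Loxl2, Loxl3 and Loxl4, and all 5 were among the 24060 genes listed for each of 12 mouse rhabdoid tumors. They were chosen by membership of the family, with earlier results of these data known. The tumors arose in P0-CreC;Smarcb1 flox/flox mice on the FVB/N background. In these animals the P0 promoter drives Cre recombinase in early neural crest cells and the Schwann cell lineage, and both floxed alleles of the chromatin remodeling gene Smarcb1 are removed there. The tumors were dissected and frozen without treatment, and their labels place 4 in the retro-orbital region, 3 in the cheek, 3 in the meninges, 1 in the vestibular nerve and 1 in the trigeminal nerve. All 12 carry the same genotype, the ages of the animals are not given in the labels, and no normal tissue was analysed here, so the comparisons below are between tumors of different sites. In 3 pairs the tumor identifiers begin alike, namely those of cheek tumors 2 and 3, of cheek tumor 1 with meninges tumor 1, and of retro-orbital tumor 3 with the trigeminal nerve tumor. The sources used here do not say whether such tumors grew in the same animal, and the tests treat them as independent.

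Lysyl oxidases are copper-dependent amine oxidases of the extracellular matrix. They oxidize lysine side chains in collagens and elastin, and the products react with each other to form the cross-links that stiffen fibers. Lox and Loxl1 are secreted as proenzymes whose propeptide is removed by proteases such as Bmp1, whereas Loxl2, Loxl3 and Loxl4 carry scavenger receptor cysteine-rich domains in front of the same catalytic domain. Lox itself acts on fibrillar collagen and elastin, Loxl1 is needed for the maintenance of elastic fibers, Loxl2 is known for collagen IV of basement membranes, Loxl3 is needed for palate and cartilage formation, and Loxl4 is the least studied of them.

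Expression was measured by RNA sequencing after removal of ribosomal RNA and is given as RPKM, the number of reads on a gene divided by its transcript length and by the depth of the library. The totals by which the values were divided, estimated from the spacing of low RPKM values, ranged from 13206168 to 57128422 per tumor (median 27929720). They spread more widely than the read numbers that the paper states, and may differ from the number of fragments counted. Smarcb1, the deleted gene, was read at 1.70 to 6.31 RPKM in the 12 tumors (4.21 ± 1.36, SD, n = 12), and the value of the whole gene does not separate reads inside the floxed part from reads outside it. Each library is a piece of bulk tumor, in which fewer cells of a type and less RNA per cell cannot be told apart. Markers of other tissues differed between tumors. The summed RPKM of 4 astrocyte markers ranged from 1.73 to 475 and that of 5 skeletal muscle markers from 3.89 to 411. All 6 fibroblast markers together reached between 130 and 499 RPKM.

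The family was expressed in every tumor, with Lox as its main transcript. Lox had the highest RPKM of the 5 genes in 9 of 12 tumors, Loxl3 in 2 tumors (cheek tumors 2 and 3) and Loxl1 in 1 (retro-orbital tumor 4). Loxl4 was the lowest of the 5 in 11 tumors and Loxl2 in the other one. The median share of the family's summed RPKM was 52.8% for Lox, 22.0% for Loxl3, 13.1% for Loxl1, 3.34% for Loxl2 and 1.08% for Loxl4. Set against all genes listed in the same tumor, the median percentage of genes with a lower RPKM was 95.1% for Lox and 44.7% for Loxl4. Loxl4 reached 1 RPKM in 6 tumors, and the other 4 genes did so in all 12.

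Differences within tumors on the log2(RPKM + 1) scale were tested between members next to each other in the order of their medians, which gave 4 pairs. The order came from the same 12 tumors, so the choice of pairs was not independent of the values tested. Levels of different genes also depend on the transcript lengths behind the RPKM, which are not given. Loxl2 was above Loxl4 in 11 of 12 tumors, with a mean difference of 1.68 ± 1.56 (SD, n = 12; exact sign-flip permutation test, two-sided, p = 0.00146, adjusted p = 0.00586). The other neighbors in that order did not differ beyond their spread. Lox exceeded Loxl3 in 10 of 12 tumors by a mean of 0.96 ± 1.51 (SD; exact permutation test, adjusted p = 0.101). The corresponding values were 1.21 ± 2.33 for Loxl3 over Loxl1 (9 of 12 tumors, exact permutation test, adjusted p = 0.108) and 1.06 ± 2.11 for Loxl1 over Loxl2 (9 of 12 tumors, exact permutation test, adjusted p = 0.108). The difference between Lox and Loxl3 passed the threshold when cheek tumor 2 or cheek tumor 3 was left out (exact permutation test, adjusted p = 0.0332 in both cases), as did that between Loxl1 and Loxl2 (exact permutation test, adjusted p = 0.0443 and 0.0430).

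**Figure D1:**
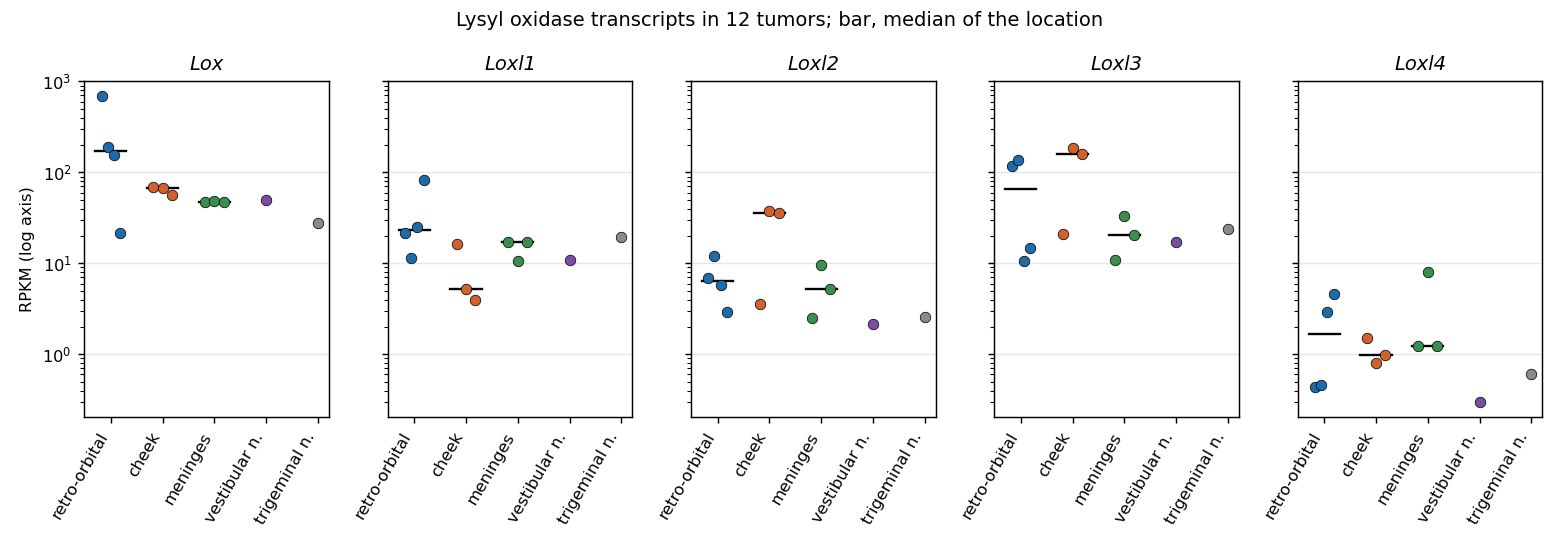
RPKM of the 5 lysyl oxidase genes on a log axis, 1 point per tumor, grouped by the labelled site; the bar marks the median of a site with several tumors. Lox spans 21.6 to 685 RPKM within the retro-orbital site alone, and Loxl4 lies below 10 RPKM in every tumor.

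Lox, on chromosome 18 (52516067 to 52529867 on GRCm38, minus strand), had 685, 188, 156 and 21.6 RPKM in retro-orbital tumors 1 to 4. It had 69.8, 67.7 and 56.8 RPKM in cheek tumors 1 to 3, and 46.8, 48.4 and 47.4 RPKM in meninges tumors 1 to 3. The vestibular nerve tumor had 49.2 RPKM and the trigeminal nerve tumor 27.8 RPKM. Of the 4 retro-orbital tumors, 3 were above every other tumor in the series, while the fourth held the lowest value, a range of 31.8-fold inside 1 site. The meninges tumors lay within 1.03-fold of each other (47.6 ± 0.818 RPKM, SD, n = 3) and the cheek tumors within 1.23-fold (64.8 ± 6.99 RPKM, SD, n = 3), against 263 ± 291 RPKM (SD, n = 4) in the retro-orbital region. Between 2908 and 91534 fragments per tumor lay behind these values.

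Loxl1, on chromosome 9 (58287738 to 58313186, minus strand), had 21.3, 11.5, 25.2 and 81.6 RPKM in retro-orbital tumors 1 to 4 and 16.3, 5.18 and 3.95 RPKM in cheek tumors 1 to 3. The meninges tumors had 17.3, 10.7 and 17.2 RPKM, the vestibular nerve tumor 10.9 RPKM and the trigeminal nerve tumor 19.7 RPKM. Retro-orbital tumor 4 stood above the rest, and it was the same tumor that had the least Lox. There Loxl1 made up 65.1% of the family's RPKM and Lox 17.2%. The lowest values were those of cheek tumors 2 and 3, where Loxl1 made up 1.75% and 1.54% of the family.

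**Figure D2:**
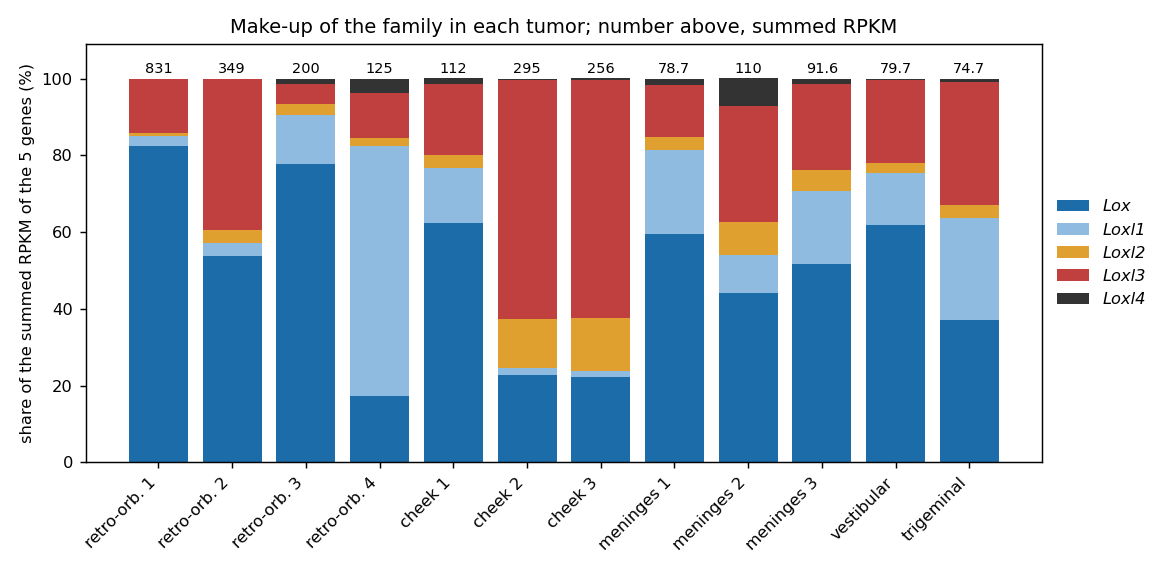
Share of each gene in the summed RPKM of the 5 lysyl oxidase genes, 1 bar per tumor, with the summed RPKM above the bar. Lox makes up 82.4% in retro-orbital tumor 1, Loxl1 65.1% in retro-orbital tumor 4 and Loxl3 62.4% in cheek tumor 2, and Loxl4 is largest in meninges tumor 2 at 7.29%.

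Loxl2, on chromosome 14 (69609068 to 69695834, plus strand), had 6.96, 12.1, 5.76 and 2.89 RPKM in retro-orbital tumors 1 to 4. In cheek tumor 1 it had 3.56 RPKM, whereas cheek tumors 2 and 3, whose identifiers begin alike, had 37.2 and 35.7 RPKM. The meninges tumors had 2.53, 9.65 and 5.17 RPKM, and the vestibular and trigeminal nerve tumors 2.15 and 2.59 RPKM. No other tumor came near the 2 cheek tumors, the next being retro-orbital tumor 2. An annotated antisense transcript, Gm27177, overlaps 301 exonic bases of Loxl2 and has no value of its own in these data. The strand setting of the authors' counting is not given in the sources used here, so reads of the 2 transcripts may not be separated.

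Loxl3 had 4 tumors well above the other 8. On chromosome 6 (83034173 to 83052562, plus strand), it had 118 and 137 RPKM in retro-orbital tumors 1 and 2 but 10.5 and 14.7 RPKM in retro-orbital tumors 3 and 4. It had 184 and 158 RPKM in cheek tumors 2 and 3 but 20.9 RPKM in cheek tumor 1. The meninges tumors had 10.8, 32.8 and 20.5 RPKM, the vestibular nerve tumor 17.2 RPKM and the trigeminal nerve tumor 24.0 RPKM. The 4 high tumors, from 118 RPKM upward, were separated from the 8 others, at 10.5 to 32.8 RPKM, by a gap of 1.81 on the log2(RPKM + 1) scale, and both the retro-orbital and the cheek site had tumors on either side of it.

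Of 10 sets of marker genes, 2 separated the same 4 tumors from the others, a description made after these values were seen. The 4 astrocyte markers (Gfap, Aqp4, Aldoc and Slc1a3) summed to 2.71, 9.00, 2.67 and 1.73 RPKM in retro-orbital tumors 1 and 2 and cheek tumors 2 and 3, and to between 27.2 and 475 RPKM in the other tumors. None of the 4 was at 0 in any tumor. The sum of Vim, Fabp7 and Smarcb1, which is nearly all Vim, was 3004, 2028, 2069 and 2071 RPKM in those 4 tumors and between 126 and 999 RPKM elsewhere. The skeletal muscle markers overlapped, at 33.0 to 411 RPKM in the 4 tumors and 3.89 to 170 RPKM in the others, as did the fibroblast markers, at 152 to 474 and 130 to 499 RPKM. The other sets overlapped as well, among them the leukocyte markers, at 150 to 513 and 96.5 to 402 RPKM, and the perivascular markers, at 107 to 150 and 28.0 to 330 RPKM. The part of cell composition in the Loxl3 levels was not tested.

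Of 4 genes beside Loxl3 on the chromosome, 3 had their highest values in the same 4 tumors. M1ap, a meiosis gene that ends 3863 bases before Loxl3 on the same strand, had 15.0, 5.04, 17.3 and 19.8 RPKM in retro-orbital tumors 1 and 2 and cheek tumors 2 and 3, and at most 1.73 RPKM in any other tumor. Dok1, an adaptor protein of tyrosine kinase signaling encoded 701 bases away on the opposite strand, had 27.7, 38.1, 51.0 and 46.5 RPKM in those 4 tumors and at most 16.1 RPKM elsewhere. Htra2, a mitochondrial protease gene on the opposite strand, had 20.2, 21.7, 22.1 and 20.7 RPKM there and at most 18.5 RPKM elsewhere. The order within the 4 tumors differed between the genes. Aup1, a lipid droplet gene 1958 bases behind Loxl3, ranged from 48.1 to 66.4 RPKM and shared 0 of its 4 highest tumors with Loxl3. Htra2 and Loxl3 overlap by 535 exonic bases, and without a stated strand setting reads from that overlap cannot be assigned to either gene with certainty. M1ap and Dok1 do not overlap Loxl3. These neighbors were described after their values were seen and carry no test. Vim, which is not among them, also had its 4 highest values in these tumors. The share of all genes with this pattern was not determined, so it is not shown to be particular to the neighbors of Loxl3.

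**Figure D3:**
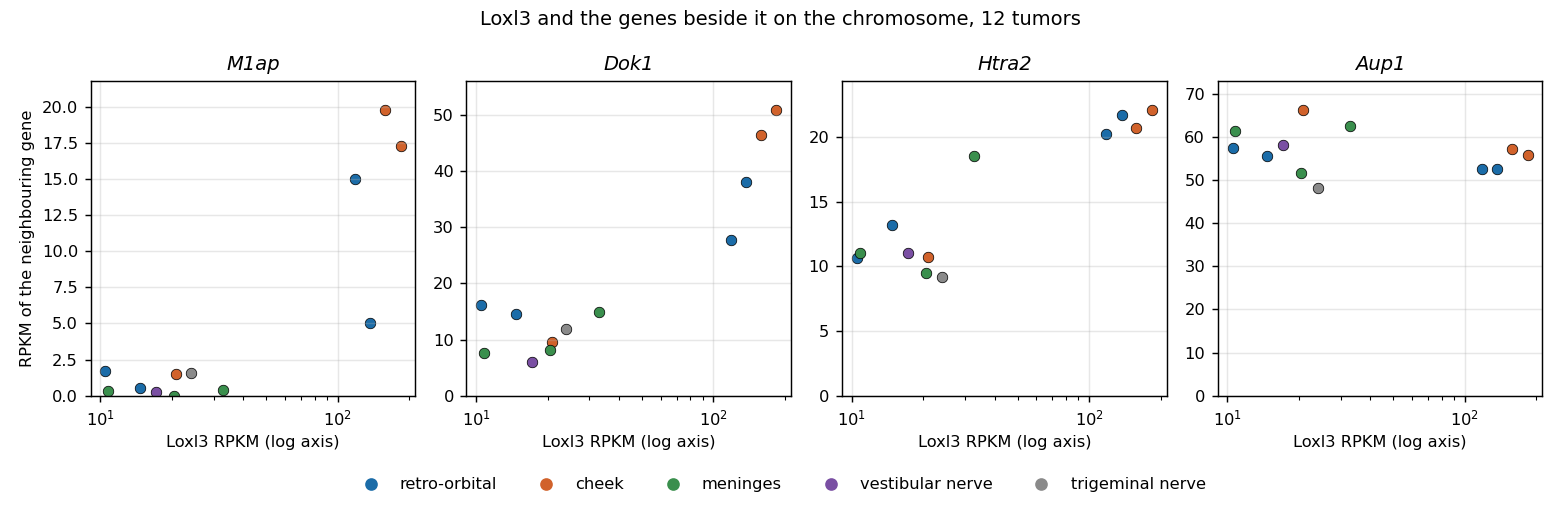
RPKM of 4 genes that lie beside Loxl3 (vertical axes, linear, from 0) against the RPKM of Loxl3 (horizontal axis, log), 1 point per tumor, colored by site. The 4 tumors with Loxl3 at or above 118 RPKM have the 4 highest values of M1ap, Dok1 and Htra2 and 52.6 to 57.2 RPKM of Aup1.

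Loxl4, on chromosome 19 (42593982 to 42612813, minus strand), was the least abundant member. It had 0.441, 0.457, 2.92 and 4.60 RPKM in retro-orbital tumors 1 to 4 and 1.52, 0.801 and 0.975 RPKM in cheek tumors 1 to 3. Meninges tumors 1 and 3 had 1.22 and 1.24 RPKM, while meninges tumor 2 had 7.99 RPKM, the highest value. The vestibular nerve tumor, at 0.298 RPKM, had the lowest value, and the trigeminal nerve tumor had 0.608 RPKM. The highest value was 26.8-fold the lowest, and 46 to 1142 fragments per tumor lay behind them. Within the family, Loxl4 made up 0.0531% in retro-orbital tumor 1 and 7.29% in meninges tumor 2. The mean share was 1.33% ± 1.69 in retro-orbital tumors (SD, n = 4), 0.669% ± 0.596 in cheek tumors (SD, n = 3) and 3.40% ± 3.37 in meninges tumors (SD, n = 3), and a difference between the 3 sites did not pass the test (exact permutation test over 4200 labellings, p = 0.297). The difference between meninges and retro-orbital tumors rested on meninges tumor 2, since it was 2.07 percentage points with this tumor and 0.126 points without it, when the test over the 3 sites gave p = 0.782 (exact permutation test).

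The start of Loxl4 is shown because the gene was compared with Myc, whose protein binds the E-box CACGTG. The window runs from 250 bases before to 50 bases after the RefSeq transcript start (chr19:42612757-42613056, minus strand, GRCm38.p6), is printed 5′ to 3′, and has matches to the GC box GGGCGG in capitals.
Loxl4: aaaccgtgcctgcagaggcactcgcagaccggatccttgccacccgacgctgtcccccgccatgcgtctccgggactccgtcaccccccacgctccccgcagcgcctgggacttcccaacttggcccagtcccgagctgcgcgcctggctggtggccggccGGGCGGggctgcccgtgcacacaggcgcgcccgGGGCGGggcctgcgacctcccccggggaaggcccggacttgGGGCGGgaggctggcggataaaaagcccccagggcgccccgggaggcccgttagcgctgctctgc
The window holds 3 matches to GGGCGG, which start at -89, -56 and -15 counted from the transcript start, and 35.7% of 32851 RefSeq promoters of the same length hold at least 1 on either strand. It holds 0 matches on either strand to CACGTG (present in 7.15% of promoters), to ACGTG, the core of the hypoxia response element and part of CACGTG (19.6%), and to TATAAA (13.6%). Its GC content is 75.0%, against a median of 52.7% over all these promoters. A match is only a run of letters, and its absence says nothing about binding elsewhere. Promoters of the other 4 members were not analysed here.

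Site of origin was tested with limma on log2(RPKM + 1) over the 10 tumors of the 3 sites with at least 3 tumors, across 14745 genes with adjustment over all of them. The overall F test called 6 genes at an adjusted p of 0.05, 0.0407% of those tested, and 0 of the 5 members, with 0 members also at an unadjusted p under 0.05 (14.3% of all genes) and adjusted p values of 0.509 for Lox, 0.351 for Loxl1, 0.461 for Loxl2, 0.523 for Loxl3 and 0.731 for Loxl4. Comparing meninges with retro-orbital tumors, limma called 3 genes (0.0203%) and 0 members, with 0 members at an unadjusted p under 0.05 (9.14% of all genes). Comparing cheek with retro-orbital tumors, it called 4 genes (0.0271%) and 0 members, with 1 member, Loxl1, at an unadjusted p under 0.05 (12.0% of all genes). Comparing meninges with cheek tumors, it called 7 genes (0.0475%) and 0 members, with 0 at an unadjusted p under 0.05 (17.0% of all genes). The median difference over all genes was 0.13, -0.02 and 0.16 in these 3 comparisons, and -0.01, 0.05 and -0.05 after scaling to equal medians. The share of variance between the 3 sites was 47.5% for Loxl1, 33.6% for Loxl2, 27.9% for Lox, 26.7% for Loxl3 and 13.5% for Loxl4, against a median of 30.1% over all genes tested. The spread over all 12 tumors was nevertheless wide. The SD on the log2(RPKM + 1) scale was 1.54 for Loxl3, 1.34 for Lox, 1.24 for Loxl2, 1.04 for Loxl1 and 0.86 for Loxl4, and the median gene had 0.48. This scale understates changes of low genes such as Loxl4. In RPKM the highest tumor was 26.8-fold the lowest for Loxl4, 31.8-fold for Lox, 20.7-fold for Loxl1, 17.3-fold for Loxl2 and 17.6-fold for Loxl3.

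The sizes of the differences between sites were as follows. Lox differed by -1.59 ± 0.88 (SE) on the log2(RPKM + 1) scale between meninges and retro-orbital tumors (limma, adjusted p = 0.596), and by -1.16 ± 0.88 between cheek and retro-orbital tumors (limma, adjusted p = 0.617). Without retro-orbital tumor 1 these values were -0.85 and -0.42, and without retro-orbital tumor 4 they were -2.49 ± 0.48 and -2.06 ± 0.48 (limma, adjusted p = 0.203 and 0.314). Loxl1 had the smallest adjusted p of the family in any of the 3 comparisons, at -1.79 ± 0.62 between cheek and retro-orbital tumors (limma, unadjusted p = 0.0174, adjusted p = 0.321). Its 3 cheek values overlapped the retro-orbital ones, since cheek tumor 1 exceeded retro-orbital tumor 2. Loxl2 differed by 1.36 ± 0.76 between cheek and retro-orbital tumors (limma, adjusted p = 0.502) and by -1.59 ± 0.81 between meninges and cheek tumors (limma, adjusted p = 0.343). The latter became -2.61 ± 0.55 and passed the threshold (limma, adjusted p = 0.0435) when cheek tumor 1 was left out, which leaves only the 2 cheek tumors whose identifiers begin alike.

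Loxl3 had the largest estimate, -2.08 ± 1.12 (SE) between meninges and cheek tumors (limma, adjusted p = 0.366), with 1.06 ± 1.05 between cheek and retro-orbital tumors (limma, adjusted p = 0.705). The first was -1.02 with the shared first part of the identifier as a block. The second ranged from 0.44 without retro-orbital tumor 3 to 2.05 without cheek tumor 1. The standard errors of Loxl3 were the widest of the family, with high and low tumors inside both of these sites. Loxl4 differed by 0.45 ± 0.63 between meninges and retro-orbital tumors (limma, adjusted p = 0.823) and by 0.77 ± 0.67 between meninges and cheek tumors (limma, adjusted p = 0.570). Without meninges tumor 2 these 2 estimates were -0.22 and 0.10, and the estimate between cheek and retro-orbital tumors, -0.33 ± 0.63 (limma, adjusted p = 0.853), became 0.04 without retro-orbital tumor 4. A p that misses the threshold in groups of 3 and 4 tumors does not show that the sites have equal levels.

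**Figure D4:**
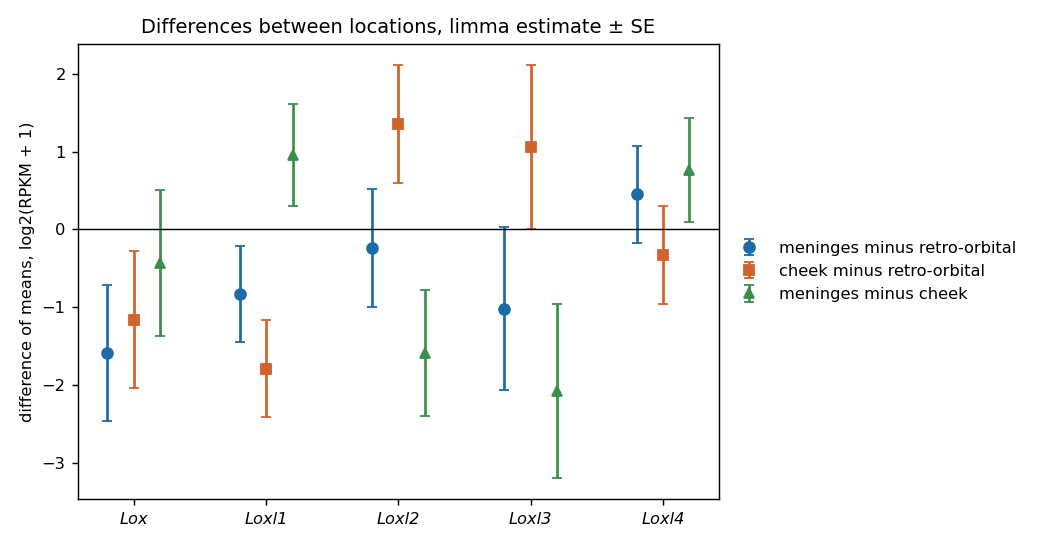
Differences between the mean log2(RPKM + 1) of pairs of sites for the 5 lysyl oxidase genes, as limma estimates with their standard errors as bars. The estimates run from -2.08 for Loxl3 (meninges minus cheek) to 1.36 for Loxl2 (cheek minus retro-orbital), and none passed an adjusted p of 0.05.

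Across the 12 tumors, 14 relations were examined on the log2(RPKM + 1) scale, namely the 10 pairs of members, Loxl4 with Myc, and 3 enzymes with a substrate each. Loxl1 and Loxl2 had a negative coefficient that did not pass adjustment, with Pearson r = -0.71 (permutation p = 0.00777, adjusted p = 0.0544) and Spearman rho = -0.50 (permutation p = 0.104, adjusted p = 0.291). The coefficient r was -0.67 without retro-orbital tumor 4 and cheek tumor 3, the 2 farthest from the median of Loxl1, and -0.62 with cheek tumors 2 and 3 averaged (permutation test, adjusted p = 0.257). It was -0.20 with retro-orbital tumor 4 and both of cheek tumors 2 and 3 left out. Quantile scaling gave an adjusted p of 0.152, and leaving out cheek tumor 2 or cheek tumor 3 gave 0.243 and 0.274 (permutation test). The coefficient passed the threshold with the vestibular nerve tumor left out (r = -0.81, permutation test, adjusted p = 0.00875), with retro-orbital tumor 4 left out (r = -0.79, permutation test, adjusted p = 0.0381) and with retro-orbital tumor 1 left out (r = -0.72, permutation test, adjusted p = 0.0449).

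Loxl2 and Loxl3 were the only pair whose r passed the threshold among the 14 relations, at r = 0.84 (permutation p = 0.000640, adjusted p = 0.00896). Their rho of 0.77 did not pass (permutation p = 0.00472, adjusted p = 0.0661). The coefficient r was 0.71 without cheek tumors 2 and 3, the 2 farthest from the median of Loxl2, and 0.80 with these tumors averaged (permutation test, adjusted p = 0.0368). Because 4 tumors stand apart in Loxl3, the value over 12 tumors mixes the difference between these sets with any relation inside them. Within the 8 others, a narrow range that was set by Loxl3 itself, r was 0.41 and rho 0.24, given as a description only. Loxl1 and Loxl3 had r = -0.63 and rho = -0.66 over the 12 tumors (permutation test, adjusted p = 0.0785 and 0.151), Lox and Loxl3 0.45 and 0.38 (permutation test, adjusted p = 0.317 and 0.399), and Loxl3 and Loxl4 -0.39 and -0.38 (permutation test, adjusted p = 0.359 and 0.399). Without the 2 tumors farthest from the median of the first gene, these 3 coefficients r were -0.56, 0.06 and -0.36. Loxl1 and Loxl3 passed the threshold without retro-orbital tumor 1 (r = -0.73, permutation test, adjusted p = 0.0407). They did not pass after quantile scaling (r = -0.56, permutation test, adjusted p = 0.196) or with cheek tumors 2 and 3 averaged (r = -0.53, permutation test, adjusted p = 0.257). With retro-orbital tumor 4 and both of cheek tumors 2 and 3 left out, their r was -0.24.

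Myc, the transcription factor and oncogene, had its lowest value of 13.3 RPKM in meninges tumor 2, where Loxl4 was highest, and its highest of 59.2 RPKM in retro-orbital tumor 1, where Loxl4 was at 0.441 RPKM. The paper reports Loxl4 as overexpressed in the MYC molecular subgroup of its mouse tumors and of human tumors. Those subgroups came from clustering of expression profiles, not from the level of Myc. The subgroup of each tumor was not used here, so the relation below concerns Myc RNA only. Over the 12 tumors Loxl4 and Myc had r = -0.64 (permutation p = 0.0224, adjusted p = 0.0785) and rho = -0.62 (permutation p = 0.0343, adjusted p = 0.160). The coefficient r dropped to -0.31 without meninges tumor 2 and retro-orbital tumor 4, the 2 tumors farthest from the median of Loxl4. Their removal also narrows the range of Loxl4. With only meninges tumor 2 left out r was -0.51, and with only retro-orbital tumor 4 left out -0.58 (permutation test, adjusted p = 0.252 and 0.166). It was -0.77 without retro-orbital tumor 2 (permutation test, adjusted p = 0.0363). Between Lox and Loxl2, r was 0.25 and rho 0.55 (permutation test, adjusted p = 0.519 and 0.248), between Lox and Loxl4 -0.33 and -0.34 (permutation test, adjusted p = 0.359 and 0.432), and between Loxl1 and Loxl4 0.37 and 0.20 (permutation test, adjusted p = 0.359 and 0.666). Between Lox and Loxl1, r was -0.11 and rho -0.17 (permutation test, adjusted p = 0.755 and 0.666), and between Loxl2 and Loxl4 they were -0.06 and 0.05 (permutation test, adjusted p = 0.854 and 0.886). Without the 2 tumors farthest from the median of the first gene, r in these 5 pairs was 0.32, -0.02, 0.04, -0.36 and 0.20, in the order given.

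Of the enzymes and their substrates, Lox and Col1a1, a chain of collagen I, had r = -0.34 and rho = -0.16 (permutation test, adjusted p = 0.359 and 0.666), and r was 0.31 without retro-orbital tumors 1 and 2, the tumors with the most Lox. Loxl1 and Eln, the elastin gene, had r = -0.41 and rho = -0.31 (permutation test, adjusted p = 0.359 and 0.448). Loxl2 and Col4a1, a chain of collagen IV, had r = 0.47 and rho = 0.38 (permutation test, adjusted p = 0.317 and 0.399). Without the 2 farthest tumors these coefficients r were -0.43 and 0.36. The meninges tumors, with nearly equal Lox, had 35.3, 338 and 490 RPKM of Col1a1.

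**Figure D5:**
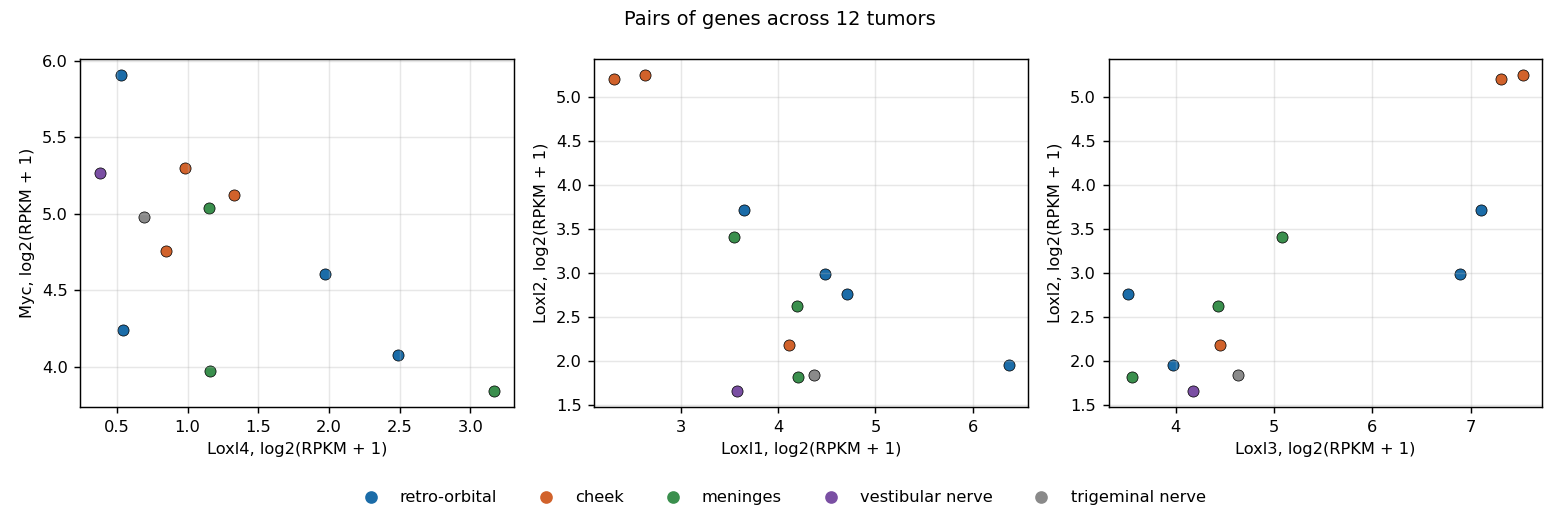
Pairs of genes across the 12 tumors on log2(RPKM + 1) axes, 1 point per tumor, colored by site: Myc against Loxl4, Loxl2 against Loxl1, and Loxl2 against Loxl3. Meninges tumor 2 lies at the end with the most Loxl4 (7.99 RPKM) and the least Myc (13.3 RPKM), and cheek tumors 2 and 3 stand apart with Loxl2 above 30 RPKM.

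The genes whose pattern over the 12 tumors was most like that of a member were taken by Pearson r among 15020 genes that reached 1 RPKM in 3 or more tumors. For Loxl4 these were Fam163a (r = 0.94), Rasgrp2 (0.93), Sgip1 (0.92), Hapln3 (0.92) and Rxfp1 (0.92), and each of them had its highest value in meninges tumor 2. Fam163a had a median of 1.09 and a highest value of 25.0 RPKM, and Rxfp1, the relaxin receptor, 0.225 and 9.15 RPKM. Without the 2 tumors farthest in Loxl4, r was 0.67 for Rxfp1 and 0.89 for Rasgrp2. For Lox they were Sulf1, a heparan sulfate sulfatase (r = 0.91), Dapk2 (0.91) and Pcdhb9 (0.87), each highest in retro-orbital tumor 1, where Sulf1 reached 512 RPKM against a median of 20.9 RPKM. For Loxl1 they were Cyld, a deubiquitinase (0.91), Itgb7 (0.90) and Ndst2 (0.89), each highest in retro-orbital tumor 4. For Loxl2 they were Map4k4 (0.97), Il1r1 (0.95) and Vcan (0.95), of which Vcan, a large matrix proteoglycan, reached 137 RPKM in cheek tumor 3 against a median of 11.4 RPKM. For Loxl3 they were Acot7 (0.96), Kcnn4 (0.95) and LOC101056149 (0.95), of which Acot7, a thioesterase, reached 49.9 RPKM in cheek tumor 3 against a median of 11.1 RPKM. These genes were chosen for their likeness, and their coefficients carry no test.

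Among 10 substrates of the enzymes, limma called 1, the collagen III gene Col3a1, as higher in cheek than in retro-orbital tumors. In this comparison 0.0271% of all genes tested were called. Of the 10 substrates, 3 were at an unadjusted p under 0.05 (limma), against 12.0% of all genes. Col3a1 had 1648, 2207 and 1530 RPKM in cheek tumors 1 to 3 and 500, 356, 435 and 291 RPKM in retro-orbital tumors 1 to 4, without overlap. The difference was 2.19 ± 0.27 (SE) on the log2(RPKM + 1) scale (limma, adjusted p = 0.0441), and the adjusted p ranged from 0.0199 to 0.405 over 17 alternatives, of which 5 kept it under 0.05. It was lost without retro-orbital tumor 2, 3 or 4, without cheek tumor 2 or 3, and without meninges tumor 2 (limma, adjusted p = 0.121, 0.101, 0.161, 0.405, 0.214 and 0.0666). The collagen I gene Col1a2 (1.75 ± 0.40, limma, adjusted p = 0.208) and Eln (1.95 ± 0.42, limma, adjusted p = 0.188) were in the same direction and did not pass. Col2a1, the cartilage collagen, was below 14 RPKM in every tumor. The median difference between cheek and retro-orbital tumors was 0.68 over the 10 substrates and -0.02 over all genes tested. Between meninges and retro-orbital tumors limma called 0 of the 10 substrates (2 at an unadjusted p under 0.05, against 9.14% of all genes), and between meninges and cheek tumors 0 (3 at an unadjusted p under 0.05, against 17.0%), with medians of 0.10 and -0.50 against 0.13 and 0.16 over all genes. The 3 cheek tumors thus had the most Col3a1 of all 12, while their Lox lay between 56.8 and 69.8 RPKM and their Loxl3 at 20.9, 184 and 158 RPKM.

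None of the other genes of the pathway were called by limma. Of the 14 activators, anchors and partners of the enzymes, 13 were tested and Tll2 was below the filter, with 2 at an unadjusted p under 0.05 in the comparison of meninges with retro-orbital tumors, 3 for cheek with retro-orbital and 2 for meninges with cheek, against 9.14%, 12.0% and 17.0% of all genes. Their median differences were -0.58, -0.06 and -0.29. Postn, the matricellular protein periostin that brings Bmp1 to Lox, ranged from 34.3 RPKM in meninges tumor 1 to 2952 RPKM in retro-orbital tumor 2, with 1969 RPKM in retro-orbital tumor 1 and 2037 RPKM in cheek tumor 1. Fmod, the collagen-binding proteoglycan fibromodulin, had 35.8, 20.5 and 19.0 RPKM in the cheek tumors and 0.625 to 11.6 RPKM in all others. Fbn2, a microfibril protein of elastic fibers, was highest in cheek tumors 2 and 3 (33.8 and 29.4 RPKM), the tumors with the most Loxl2 and Loxl3, and at most 11.6 RPKM elsewhere. Retro-orbital tumor 2, the next in both Loxl2 and Loxl3, had the least Fbn2 of all tumors (0.256 RPKM). Adamts14, a procollagen peptidase, was highest in retro-orbital tumor 2 and cheek tumors 2 and 3 (6.73, 4.80 and 4.57 RPKM).

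Of 10 other collagen-modifying enzymes, 0 were called by limma, with 0, 1 and 1 at an unadjusted p under 0.05 for meninges with retro-orbital, cheek with retro-orbital and meninges with cheek, against the same shares of all genes. The medians were -0.03, 0.04 and 0.30. Tgm2, a transglutaminase that cross-links matrix proteins by another chemistry, ranged from 17.1 RPKM in cheek tumor 1 to 123 RPKM in retro-orbital tumor 4. Serpinh1, the collagen chaperone, ranged from 82.9 to 428 RPKM, Pcolce, an enhancer of procollagen cleavage, from 11.6 to 86.0 RPKM, and P4ha2, a prolyl hydroxylase subunit, from 0.973 to 12.9 RPKM. Of 7 genes of copper supply, 6 were tested and 0 called, with 0 at an unadjusted p under 0.05 in each of the 3 comparisons. Atp7a, the copper pump that loads secreted enzymes, lay between 7.19 and 23.9 RPKM, and the copper chaperone Atox1 between 46.8 and 84.3 RPKM. The metallothioneins Mt1 and Mt2, which bind copper and zinc, were widest, from 74.4 to 1711 RPKM and from 16.9 to 613 RPKM. Their lowest values were in retro-orbital tumor 1, the tumor with the most Lox. Retro-orbital tumors 2 and 3, the next in Lox, had 508 and 1347 RPKM of Mt1 (median 368) and 197 and 532 RPKM of Mt2 (median 97.7).

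Of 14 upstream signals, the Tgf-beta and hypoxia genes and Myc and Mycn, 13 were tested and 0 called by limma, with 2, 4 and 1 at an unadjusted p under 0.05 in the 3 comparisons in the order given, against 9.14%, 12.0% and 17.0% of all genes. Their medians were -0.24, -0.90 and 0.49. Tgfbr2, a receptor of Tgf-beta, had 96.0, 86.0, 87.4 and 74.6 RPKM in retro-orbital tumors 1 to 4 and 28.5, 27.1 and 31.5 RPKM in cheek tumors 1 to 3, without overlap. The difference was -1.53 ± 0.23 (SE) on the log2(RPKM + 1) scale (limma, adjusted p = 0.126). Over 17 alternatives the adjusted p of limma ranged from 0.0250 to 0.754, and 2 of them passed the threshold. These were the fits without cheek tumor 1 (limma, adjusted p = 0.0449) and without meninges tumor 2 (limma, adjusted p = 0.0250). Bnip3, a hypoxia-induced mitophagy gene, was highest in retro-orbital tumors 1 and 2 (77.1 and 76.1 RPKM), which also had the most Lox, and lowest in meninges tumor 2 at 8.66 RPKM. The other hypoxia genes of the list did not all follow this order. Vegfa and Slc2a1 were highest in retro-orbital tumor 1, Adm, Egln3 and Ndrg1 in retro-orbital tumor 3, and Hif1a in meninges tumor 1. Tgfb3 was highest in retro-orbital tumor 1, at 182 RPKM, and lowest in cheek tumor 3, at 26.4 RPKM. Tgfb2 ranged from 0.719 RPKM in retro-orbital tumor 1 to 22.1 RPKM in meninges tumor 3.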

How the data were processed

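RNA from 12 tumors had been extracted from frozen tissue, depleted of ribosomal RNA and prepared as stranded libraries. The authors aligned the paired reads to mm10 with STAR and used HTSeq to count fragments over RefSeq genes, and they deposited 1 RPKM value per gene and tumor. The transcript length behind each RPKM and the strand setting of the counting are not given in the sources used here. The submitters' processing notes also name bcl2fastq 2.17, edgeR and limma. Low values rest on few fragments, and fragment numbers per gene were estimated at the smallest transcript length that made its 12 values whole. Of the rows listed, 27 hold a date where the gene symbol should be and were kept but not named.

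Values were transformed to log2(RPKM + 1), a scale that understates changes of low genes. limma 3.58.1 in R 4.3.3 was fitted with a trended, robust prior variance to the 10 tumors of 3 sites and to the 14745 genes that reached 1 RPKM in 3 or more of them. P values were adjusted by the Benjamini-Hochberg method over all genes, with a threshold of 0.05. Exact permutation tests compared shares and pairs of members, and 100000 resamples were drawn for correlations (Python 3.11.15, scipy 1.17.1). Adjusted p values of these tests cover the 4 pairs or the 14 relations. Replicate numbers follow the accession order and only name tumors. The scripts were tested on simulated data. Gene positions are from GENCODE M21 on GRCm38, and the Loxl4 promoter from RefSeq on GRCm38.p6.

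The members and gene lists were chosen with earlier results of these data known. Besides the members, genes were named if called within a pathway list, otherwise the up to 4 per list with the widest range of site means, together with the 5 genes most like Loxl4 and the 3 most like each other member. The other hypoxia genes were named so that Bnip3 could be read beside them. Alternatives were a pseudocount of 0.1, no filter, quantile or median scaling, a constant prior variance, the shared first part of the identifier as a block, and the omission of each tumor. After the data were seen, the averaging of cheek tumors 2 and 3 was added.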

Additional observations from a re-analysis of the deposited data

Results flagged for a closer look

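Among 45 values screened in the retro-orbital group of 4 tumors, 4 had 1 tumor so far from the others that its gap to the nearest, divided by the range, exceeded 0.829. For normally distributed values chance would flag about 1 in 20 such groups. Here RPKM were screened untransformed and many of the genes were chosen from these same data, so that rate need not hold. No member of the family was among the 4. Adamts14 had 6.73 RPKM in retro-orbital tumor 2 against 1.47 RPKM in the nearest tumor (ratio 0.836). Tgfb2 had 16.7 RPKM in retro-orbital tumor 3 against 2.93 RPKM (ratio 0.862). Dapk2 and Pcdhb9, both named for their likeness to Lox, had 25.7 and 11.2 RPKM in retro-orbital tumor 1 against 5.43 and 2.46 RPKM (ratios 0.840 and 0.837).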

How the results depend on the processing

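No paired analysis was possible because the replicate numbers follow the accession order and pair no tumors, and identifiers that begin alike, fitted as a block instead, link 1 pair across the 3 sites. The numbers of genes called by the F test (6), for meninges with retro-orbital (3), cheek with retro-orbital (4) and meninges with cheek (7) moved with most settings. Without a filter they were 10, 7, 2 and 18 of 22520 genes, and with a constant prior variance 19, 6, 3 and 22. Meninges with cheek gave 2 calls at a pseudocount of 0.1 and 13 after quantile scaling. With the shared first part of the identifier as a block the numbers were 2802, 3, 2 and 4243. The correlation of 0.93 used there rests on 2 pairs of tumors within the 3 sites. With cheek tumors 2 and 3 averaged, limma called 0 genes in each. Omitting 1 tumor gave 0 to 198, 0 to 41, 0 to 147 and 0 to 527 calls. The highest F, cheek with retro-orbital and meninges with cheek counts came without cheek tumor 1, the highest meninges with retro-orbital count without retro-orbital tumor 3, and cheek tumor 2 or 3 left out gave 0 calls in each. Across 255 values of the members under these alternatives, 1 passed an adjusted p of 0.05 (0.0435, Loxl2 between meninges and cheek without cheek tumor 1) and 7 changed sign. The block turned Loxl2 between meninges and retro-orbital to 0.27, and Loxl4 to 0.26 between cheek and retro-orbital and -0.05 between meninges and cheek. Omitting 1 tumor moved Loxl2 between meninges and retro-orbital from -0.63 to 0.16, Loxl4 in that comparison from -0.22 to 0.81 and Loxl4 between cheek and retro-orbital from -0.61 to 0.04. Col3a1 kept its direction and size (2.03 to 2.44 over 17 alternatives) and lost its call without a filter, after quantile or median scaling, with the constant prior, with the block and with the average. The differences between neighboring members ranged from 0.70 to 1.18 for Lox and Loxl3, 0.87 to 1.54 for Loxl3 and Loxl1, 0.75 to 1.42 for Loxl1 and Loxl2 and 1.43 to 1.88 for Loxl2 and Loxl4, and that of the Loxl4 share from 0.126 to 3.09 points. Correlations ranged from -0.35 to 0.27 for Lox and Loxl1, -0.20 to 0.06 for Loxl2 and Loxl4, -0.52 to 0.05 for Lox and Col1a1, -0.81 to -0.60 for Loxl1 and Loxl2, -0.73 to -0.53 for Loxl1 and Loxl3, 0.79 to 0.89 for Loxl2 and Loxl3 and -0.77 to -0.51 for Loxl4 and Myc. Loxl2 and Loxl4 gave 0.12 after quantile scaling and 0.01 with the average. The cause of these changes was not tested. Loxl4 rests on 46 to 1142 fragments, and groups of 3 and 4 tumors limit every comparison.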
